A study of Drosophila melanogaster with 24 samples.

Results

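Among 22575 spots of a Drosophila melanogaster microarray, 21 were bright in every kind of sample and changed little between them. A spot is the place on the array where 1 probe catches its matching labelled RNA, and its brightness follows the amount of that RNA. The 21 were chosen by their measured signal on a log2 scale, after background correction with an offset of 50 scanner units and quantile normalization, which gives all samples the same distribution of values. In each of 6 groups of samples the mean had to be at least 8.5, and the highest group mean could exceed the lowest by less than 0.75. The levels and the closeness of the group means are therefore set by this choice and are given as a description.

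The samples were RNA of the isogenic fly line WI89, 24 in all and 4 per group. There were 3 groups of pupae (females alone, males alone, and both sexes mixed), 1 of embryos of mixed sex, and 2 of body parts cut from adult males, namely heads and abdomens. Pupae of every pupal group were picked as white prepupae 0 to 1 h after the pupal case formed and kept for 12 h at 25 °C, and equal amounts of male and female pupal RNA were combined for the mixed-sex group. Embryos covered 24 h of egg laying and so many ages at once, adults were 24 to 48 h old, and no genetic change or treatment is named for any group. The mRNA was labelled with the dye Cy5 in 2 samples of each group and with Cy3 in the other 2, without amplification. The labels do not say whether replicates came from separate animals or cultures, so the p-values speak to scatter among the samples at hand, possibly technical, and to nothing wider.

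The spots are known here only by their place on the array. They are numbered in spot order, and no gene, exon or sequence was assigned to any of them, so marker genes of heads, abdomens or embryos could not be checked. As background, transcripts that stay high from embryo to adult in flies typically come from genes that nearly every cell uses, such as those for ribosomal proteins, translation elongation factors, ATP synthase subunits and the cytoskeleton. The tissues set side by side here otherwise do very different work. Embryos lay down the body plan, pupae of this age break down larval tissues and build adult ones, adult heads are rich in neurons and photoreceptors, and male abdomens hold the testes, accessory glands, gut and fat body. A spot can also stay level while 1 transcript form of a gene replaces another, since a probe reads only its own stretch of RNA.

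Median signal over local background per sample ran from 5.19 to 61.7 scanner units in the 12 Cy5 samples and from 60.8 to 144 in the 12 Cy3 samples. The samples lay in pairs of opposite dye on 12 arrays, and 4 arrays, with 71.2 to 95.6 units averaged over their pair, were brighter than the other 8, with 34.5 to 45.9. On bright arrays were 3 male pupal samples, 2 of each mixed-sex group, 1 female pupal sample and 0 adult ones. Precision is limited by how few arrays there are.

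Few spots were bright in all 6 groups, and most of those were not steady. Of the 22575 spots, 151 (0.669%) had all 6 group means at or above 8.5, and the 21 steady spots were 13.9% of these. Spots with a lowest group mean under 6.5, where the offset compresses differences, had a range under 0.75 in 87.8% of 18528 cases. Between 6.5 and 7.5 the share was 65.8% of 3510 spots, and between 7.5 and 8.5 it was 36.3% of 386. The 21 spots had a median range of 0.61 (0.23 to 0.75), and the 130 other spots bright in every group had a median range of 1.42 (0.77 to 3.08). At the level limit, spots 21695 and 10654 lay just inside with lowest group means of 8.53 and 8.54, and spots 7276 and 16289 lay just outside with 8.49 and 8.41. At the range limit, spots 16989 and 8850 lay inside with 0.75 and 0.71, the first at 0.747 before rounding, and spots 13817 and 15813 lay outside with ranges of 0.77 each.

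The 21 mean levels ran from 8.77 to 12.22, with a median of 9.21. Signals of different probes also depend on the probe, so the levels of single spots are not set against each other here. As a set, the 130 other bright spots had a median level of 9.86, so comparisons with them were not matched in level. In scanner units over background, spot 8850 ran from 595 to 7488 in the Cy5 samples and from 3712 to 17402 in the Cy3 samples. Before background was taken off, the brightest reading of any member was 17458, against 39605 for any spot. Spot 21695 ran from 76.9 to 584 units in the Cy5 samples and from 511 to 986 in the Cy3 samples. After normalization the least bright single value among all members still ranked above 95.8% of the spots in its sample.

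Steady group means did not mean steady samples. Across the 24 samples a member spanned a median of 1.34 log2 units from its lowest to its highest sample, and between 0.94 and 2.29. Spot 1233 had the smallest range of group means, 0.23, yet its samples ran from 8.37 to 9.99. Pupae averaged 9.22 ± 0.53 when female, 9.01 ± 0.29 when male and 9.09 ± 0.57 when mixed, and embryos averaged 9.17 ± 0.12 (SD, n = 4 each). Heads averaged 9.13 ± 0.68 and abdomens 9.24 ± 0.35 (SD, n = 4 each). The samples of every group overlapped those of every other group at this spot.

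Spot 16649 followed with a range of 0.31, and it varied less within groups. Female pupae gave 9.15, 9.02, 9.41 and 9.13, males gave 9.09, 8.58, 9.05 and 8.82, and the mixed-sex pupae gave 9.01, 8.94, 9.29 and 8.83. Embryos gave 9.49, 9.16, 9.11 and 9.02. Among adult parts, heads gave 8.49, 9.06, 9.38 and 9.03 and abdomens 9.09, 8.77, 8.89 and 9.12. No group stood clear of the rest. Spots 13563 and 12916 had ranges of 0.33 and 0.34, with samples between 10.03 and 11.36 and between 8.84 and 10.27. Head replicate 3 was the highest sample at both.

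Within the limit on the range, embryos were most often the highest group. They held the highest of the 6 means at 12 of the 21 spots, heads at 4, male pupae and abdomens at 2 each, female pupae at 1 and mixed-sex pupae at 0. Abdomens and male pupae held the lowest mean at 7 spots each, heads at 5, mixed-sex pupae at 2, and female pupae and embryos at 0. Among the 130 other bright spots, embryos were highest at 80 and heads lowest at 78. Embryos were thus most often highest in both sets, and no such count was made over all spots. The median over the 21 spots, taken in each sample, averaged 9.42 ± 0.12 for female, 9.35 ± 0.19 for male and 9.27 ± 0.32 for mixed-sex pupae, 9.50 ± 0.18 for embryos, 9.36 ± 0.23 for heads and 9.35 ± 0.26 for abdomens (SD, n = 4 each). The widest gap, between mixed-sex pupae and embryos, was smaller than the SD of the mixed-sex pupae.

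Group comparisons were fitted in limma over all spots, with the dye as a term, and called at a Benjamini-Hochberg adjusted p of 0.05. These fits took the 2 samples of an array as separate, although limma put their correlation at 0.49. Their p-values can therefore be too small or too large. The rule used these same group means, so the counts only describe the spots. A difference among any of the 6 groups was called at 3 of the 21, spots 16989, 6683 and 8850, where 33.8% of all spots were called. Among the 130 other bright spots 123 were called. With the array as a random block 6 of the 21 were called, where 39% of all spots were.

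Mixed-sex pupae were compared with embryos to read developmental stage. Of the 21 spots 2 were called, both lower in pupae, where 13.5% of all spots were called, 7.3% lower in pupae and 6.23% higher. Spot 16989 had 10.18, 10.28, 10.23 and 10.51 in mixed-sex pupae and 10.84, 11.07, 10.83 and 10.67 in embryos. The 2 groups did not overlap there, and the difference was -0.55 (SE 0.14, limma adjusted p = 0.0105). Spot 6683 had 11.45, 11.91, 11.36 and 11.32 in mixed-sex pupae and 11.91, 11.83, 12.21 and 11.91 in embryos, so mixed-sex replicate 2 reached into the embryo values. Its difference of -0.46 (SE 0.15, limma adjusted p = 0.0412) was no longer called without any 1 of 7 samples: male pupae replicate 1, mixed-sex pupae replicates 1, 3 and 4, and embryo replicates 1, 3 and 4 (limma adjusted p between 0.0502 and 0.146). With the array as a random block the same 2 spots were called, where 16.7% of all spots were. Spots 16989 and 6683 then differed by -0.52 and -0.41 (limma adjusted p = 0.00261 and 0.0199). The median difference over the 21 spots, without the block, was -0.27, with 3 above 0. It was -0.01 over all spots, with 47.6% above 0, and -0.53 over the 130 other bright spots, with 17 above 0.

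Female and male pupae were compared to read sex. Of the 21 spots 0 were called by limma, where 5.07% of all spots were (0.656% higher and 4.42% lower in females). The lowest adjusted p was 0.268, at spot 4620. There female pupae had 9.19, 9.18, 9.20 and 9.17 and male pupae had 8.94, 8.71, 9.07 and 8.46. The female samples lay close together and above every male sample, and the difference was 0.39 (SE 0.16). The median difference over the 21 spots was 0.11, with 16 above 0, against 0.02 over all spots, with 58.1% above 0. Of the male samples 3 lay on bright arrays and of the female samples 1, and the part of array brightness in these differences was not tested.

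For tissue, heads were set against abdomens, all from adult males. Again 0 of the 21 spots were called by limma, where 19.1% of all spots were (7.57% higher and 11.5% lower in heads). Spot 13838 came nearest, with 10.16, 10.21, 11.14 and 10.38 in heads and 10.04, 10.15, 9.81 and 9.79 in abdomens. All 4 head samples lay above the abdomen samples, head replicate 1 only narrowly, and the difference was 0.53 (SE 0.20, limma adjusted p = 0.0764). Without head replicate 1, without head replicate 3 or without abdomen replicate 4 the tissue comparison called a different spot each time, namely 13838 (0.65), 16989 (-0.56) and 11923 (-0.66), where 19%, 17.1% and 16.3% of all spots were called. With the array as a random block it called spots 11923 (-0.66) and 16989 (-0.55), where 26.4% of all spots were called. The median difference over the 21 was 0.10, with 13 above 0. Over all spots it was 0.05, with 62.1% above 0, so the count at the 21 was near the background. With each sample scaled to its 75th percentile in place of quantile normalization the median over the 21 was -0.41, with 0 above 0. Over all spots it was then 0.22, with 17490 of 22575 above 0, so the tissue direction depends on the scaling.

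The choice bounded these differences, so their 95% intervals are given only for their width. The median interval reached 0.43 log2 units to either side for sex, 0.42 for stage and 0.42 for tissue.

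Pupal RNA of males and females went into the mixed-sex group in equal amounts. The mixed-sex mean lay between the female and male means at 15 of the 21 spots. The rule bounded these means and no such count was made over all spots, so the mixing was not tested. Mixed-sex minus the average of the female and male means ran from -0.20 to 0.06, with a median of -0.05.

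The same limits were also applied to 1 dye alone, and the spots chosen there were read in the other dye. The 12 Cy3 samples had 142 spots bright in every group, of which 15 were steady, and 12 of these were among the 21. In the Cy5 samples the 15 had a median range of 0.68 (0.53 to 1.68), and 9 of them (60%) stayed under 0.75. Of the 127 bright spots not steady in Cy3, 5 (3.94%) were under 0.75 in Cy5, and all 127 had a median range of 1.57 there. Chosen in the Cy5 samples instead, 18 of 146 bright spots were steady, 13 of them among the 21. In the Cy3 samples 11 of these 18 (61.1%) stayed under 0.75, against 6 of 128 (4.69%) not chosen. Samples of opposite dye shared arrays and were normalized together, so the readings were not fully separate. The 21 were chosen with both dyes, so overlap with them was partly built in, and these counts only describe the spots.

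The choice itself moved with the normalization. With 75th percentile scaling the rule gave 13 spots, 9 of them among the 21, and 11 of the 21 reached a range of 0.75 or more. Spots 8850 and 6683 moved most, to ranges of 1.85 and 1.78. With plain background subtraction 16 spots passed, all among the 21, and 20 of the 21 kept a range under 0.75.

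Spread within groups was not used by the rule, although a limit on the range favours spots that vary little. The SD within groups, after the dye term, had a median of 0.29 over the 21 spots, 0.25 over the 130 other bright spots and 0.14 over all spots. It was smallest at spot 16989 (0.19), followed by spots 4620 and 6683 (0.21 each). Spots 16649 and 8850 came next (0.24 each). Spots 5457 and 22388 had the largest, 0.56 and 0.51. Deviations were split into a part common to the 2 samples of an array and a part that differed within it. The common part had a median SD of 0.18 over the 21 spots, against 0.16 for the differing part. Over all spots these were 0.10 and 0.068. The common part was the larger at 18 of the 21 spots, at 115 of the 130 others and at 86.8% of all spots.

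The 3 spots called for array brightness were also those with the largest SD within groups. That SD had no brightness term, so a brightness difference adds to it. Spot 18281 came next (0.48) and was not called for brightness. Bright and dim arrays were compared within groups, with group and dye as terms, a difference the rule did not use. At 3 of the 21 spots (14.3%) the samples on bright arrays were higher, where 32.2% of all spots were called in either direction, 16.9% higher and 15.3% lower on bright arrays. The share among the members was below this background, so brightness calls are no result about the 21. The other bright spots had 27 of 130 called.

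Spot 11090 differed most, by 0.96 log2 units (SE 0.14, limma adjusted p = 3.50e-05). Brightness belongs to an array, and this fit took the 2 samples of an array as separate, so its SE and p-value can be too small. With the array as a random block the difference was 0.91 (limma adjusted p = 0.000228). In female pupae the bright-array sample had 10.39, against 9.34, 9.52 and 9.40 on dim arrays. In males 10.67, 10.40 and 10.10 stood against 9.18. Mixed-sex pupae had 10.26 and 10.36 on bright arrays, against 9.65 and 9.02 on dim ones, and embryos 10.46 and 10.57, against 9.47 and 10.03. The bright samples lay above the dim ones in all 4 of these groups. With brightness in the model its SD within groups was 0.26, against 0.50 without.

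Spot 5457 was 0.87 higher on bright arrays (SE 0.21, limma adjusted p = 0.0035), with overlap only in female pupae, where dim-array replicate 2 reached 9.64 against 9.60 for bright-array replicate 4. Spot 22388, in the last row of the array, was 0.74 higher (SE 0.20, limma adjusted p = 0.0075), without overlap in the 4 groups. Their SD within groups was 0.42 and 0.39 with brightness in the model. Heads and abdomens lay on dim arrays alone, so their group means at these 3 spots include no bright sample, and what part brightness has in the small range of their group means was not tested.

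The dye comparison was also outside the rule, because every group held 2 samples of each dye. Marked readings left out at spots 13563, 16989 and 18281 upset this balance there. At 3 of the 21 spots (14.3%) Cy5 samples were higher than Cy3 samples, where 7.11% of all spots were called in either direction, 3.54% higher and 3.57% lower in Cy5. Among the 130 other bright spots 29 (22.3%) were called, 19 of them higher in Cy5. The median Cy5 minus Cy3 difference was 0.29 over the 21 spots, with 15 above 0. It was 0.01 over all spots, with 53.9% above 0, and -0.06 over the other bright spots, with 53 above 0. The direction at the 21 holds for quantile-normalized values. With 75th percentile scaling the median was -0.59 over the 21, with 0 above 0, against 0.24 over all spots, with 17336 of 22575 above 0. It called 15 other members, all lower in Cy5, where 66.1% of all spots were called in either direction. With the array as a random block 11 members were called, all higher in Cy5, where 24.7% of all spots were called in either direction.

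Spot 18281 had the largest dye difference, 0.78 (SE 0.19, limma adjusted p = 0.0197). In heads Cy5 gave 10.48 and 9.78 and Cy3 gave 8.73 and 8.36. In abdomens Cy5 gave 10.12 and 9.07 and Cy3 gave 8.22 and 9.10. The gap was widest in heads and smaller in embryos, where Cy5 gave 8.90 and 9.49 and Cy3 gave 8.97 and 9.0. Female pupae had 8.87 and 9.26 in Cy5, against 8.24 and 9.31 in Cy3, and males had 9.20 against 8.25 and 8.71. The mixed-sex pupae had 9.03 and 9.26 in Cy5, against 8.19 in Cy3. Cy5 was higher on average in all 6 groups, and the dyes did not overlap in 3. One marked reading each was left out of male and mixed-sex pupae, so these had n = 3 and were uneven in dye. The unadjusted means at this spot therefore carry some of the dye difference. Female and male pupae averaged 8.92 and 8.72, while the difference with the dye term was 0.066.

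Spot 1233, with the smallest range between groups, had a dye difference of 0.58 (SE 0.13, limma adjusted p = 0.0132). Its Cy5 and Cy3 samples did not overlap in 5 of 6 groups, embryos being the exception. Spot 11923 had 0.41 (SE 0.11, limma adjusted p = 0.0303), without overlap in 4 groups. This last call was lost without any 1 of 9 samples, namely female pupae replicate 1, embryo replicates 2, 3 and 4, head replicates 2, 3 and 4, and abdomen replicates 1 and 2 (limma adjusted p between 0.0509 and 0.0566). Without male pupae replicate 4 the dye comparison called 6 members (7.13% of all spots), and without embryo replicate 1 it called 5 (8.31%).

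The other 12 members were called in none of these comparisons by limma without an array block. With the array as a random block, which takes in that samples share arrays, 6 of the 12 were called higher in Cy5. They were spots 6640, 7497, 10654, 12916, 13563 and 14078, where 24.7% of all spots were called in either direction. The same fit called a difference among the groups at spots 5826 and 17092, where 39% of all spots were called. The 12 were picked for having no call without the block, so these counts only describe them. Spots 13563, 12916 and 6640 were 0.35, 0.37 and 0.35 higher in Cy5 without the block and missed the threshold (limma adjusted p = 0.0674, 0.0622 and 0.0533).

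Most of the 12 peaked in embryos within the limit. Spot 14078 averaged 9.98 in female, 9.96 in male and 9.98 in mixed-sex pupae, 10.04 in embryos, 9.42 in heads and 9.74 in abdomens. At spot 17092 the means were 9.29 for females, 9.19 for males and 9.12 for both mixed among pupae, then 9.57 for embryos, 9.21 for heads and 8.88 for abdomens. For spot 5826, pupae gave 9.40 (female), 9.15 (male) and 9.27 (mixed), embryos 9.54, heads 8.97 and abdomens 8.90. All 3 had embryos highest, the first with heads lowest and the others with abdomens lowest. Spot 7497 averaged 9.13 in female, 8.82 in male and 9.0 in mixed-sex pupae, 9.36 in embryos, 9.05 in heads and 9.20 in abdomens. At spot 16649 the means were 9.17 for females, 8.89 for males and 9.02 for both mixed among pupae, then 9.20 for embryos, 8.99 for heads and 8.97 for abdomens. For spot 6640, pupae gave 8.93 (female), 8.85 (male) and 8.95 (mixed), embryos 9.27, heads 8.95 and abdomens 8.65. Embryos were again highest at all 3, with male pupae lowest at 7497 and 16649 and abdomens at 6640. Spot 13563 averaged 10.54 in female, 10.27 in male and 10.40 in mixed-sex pupae, 10.60 in embryos, 10.59 in heads and 10.43 in abdomens. At spot 12916 the means were 9.60 for females, 9.34 for males and 9.26 for both mixed among pupae, then 9.61 for embryos, 9.60 for heads and 9.33 for abdomens. For spot 13838, pupae gave 10.52 (female), 10.09 (male) and 10.26 (mixed), embryos 10.53, heads 10.47 and abdomens 9.95. Embryos led these too, by little over heads or female pupae, and at spot 13563 a marked reading was left out of female and of male pupae (n = 3 there). Spot 10654 averaged 8.68 in female, 8.61 in male and 8.54 in mixed-sex pupae, 9.04 in embryos, 9.19 in heads and 8.78 in abdomens. At spot 4620 the means were 9.19 for females, 8.80 for males and 8.88 for both mixed among pupae, then 8.87 for embryos, 9.20 for heads and 9.21 for abdomens. For spot 21695, pupae gave 8.94 (female), 8.53 (male) and 8.75 (mixed), embryos 8.62, heads 8.98 and abdomens 8.81. These 3 had an adult part highest, heads at 10654 and 21695 and abdomens at 4620.

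Of the 8 called members not yet given in full, embryos were highest at 3, male pupae and heads at 2 each and female pupae at 1. Spot 8850 averaged 12.16 in female, 12.53 in male and 12.24 in mixed-sex pupae, 12.39 in embryos, 11.82 in heads and 12.18 in abdomens. At spot 6683 the means were 11.53 for females, 11.71 for males and 11.51 for both mixed among pupae, then 11.96 for embryos, 11.44 for heads and 11.33 for abdomens. For spot 16989, pupae gave 10.44 (female), 10.33 (male) and 10.30 (mixed), embryos 10.85, heads 10.10 and abdomens 10.53. At spot 16989 a marked reading was left out of heads and of abdomens (n = 3 there). Spot 11923 averaged 10.41 in female, 10.28 in male and 10.28 in mixed-sex pupae, 10.33 in embryos, 9.71 in heads and 10.18 in abdomens. At spot 11090 the means were 9.66 for females, 10.09 for males and 9.82 for both mixed among pupae, then 10.13 for embryos, 9.44 for heads and 9.73 for abdomens. For spot 18281, pupae gave 8.92 (female), 8.72 (male) and 8.83 (mixed), embryos 9.09, heads 9.33 and abdomens 9.13. Heads were lowest at the first of these and at 11090, and highest at 18281. Spot 5457 averaged 9.10 in female, 9.28 in male and 9.11 in mixed-sex pupae, 9.10 in embryos, 9.10 in heads and 8.81 in abdomens. At spot 22388 the means were 8.95 for females, 9.11 for males and 8.96 for both mixed among pupae, then 9.10 for embryos, 9.17 for heads and 8.61 for abdomens. Abdomens were lowest at both.

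The 21 spots were scattered over the array. They lay in rows 6 to 105 of 105 and columns 4 to 195 of 215, with 1 on the outer edge, and the closest pair was 3.61 spot spacings apart. The part of the array up to its middle column held 15 of the 21, against 49.8% of all spots, and the part up to its middle row held 10. Median local background at the 21 was 60.5 scanner units, against 60 over all spots. Their mean net signal was a median of 0.915 of their median net signal, close to the 0.908 of the other bright spots, against 0.983 over all spots. A quality mark in at least 1 sample was present at 3 of the 21 and at 5.93% of all spots.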

How the data were processed

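Each deposited scanner table lists, per the file headers, the intensity of every spot and of its surroundings (means and medians). It also holds a deposited quality score, whose codes are unexplained. These intensity values are not background-corrected or normalized. In a second table the authors deposited natural log values, equal to within 1e-07 to those of mean signal less mean background. Its sample medians ran from 1.60 to 4.96, so it is neither centred nor scaled. It served as an alternative. No source used here names the scanner software. The 17872 reference genes could not be joined to spots.

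In R 4.3.3 with limma 3.58.1, mean signal was corrected for median background by normexp (offset 50), marked spots were dropped, and log2 values were quantile normalized over 24 samples. Such log2 differences understate changes of dim spots. Control spots were not told apart and were kept. Identical patterns of marked spots paired samples into arrays. Bright arrays were set by the largest gap in signal. Models were fitted to all 22575 spots with a mean per group and a dye term (17 residual degrees of freedom, 16 with brightness). An intensity trend and Benjamini-Hochberg adjustment were used. The models were tested on simulated data with independent noise in each sample, which left out that samples share arrays. Levels are unadjusted means with SD.

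Spots were named by rule: those with the highest mean, smallest range, smallest and largest spread and largest called differences, and those next to the limits. The gene lists planned beside this rule were not run, since no spot has a gene name. The other members were given briefly, and spots 4620 and 13838 were detailed in the sex and tissue comparisons after their values were seen. Members, tests and alternatives were chosen with earlier results of these data known. Alternatives were scaling, background subtraction, the value table, marked spots kept, array and replicate blocks, a stricter threshold, no dye term, other limits, 1 dye alone and leaving out each replicate.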

Additional observations from a re-analysis of the deposited data

Results flagged for a closer look

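Each of 120 sets of 4 samples, 1 spot in 1 group, was searched for a sample far from the other 3. It was found in 6 sets. Chance gives about 5% of such sets, near the share found, so the sets listed are no result about the spots. Each set held 2 samples of each dye, and the search took no account of dye. At spot 16989 female pupae replicate 3 had 10.86, against 10.26 to 10.34 in the other female samples. The same sample had 10.36 at spot 13838, against 10.56 to 10.58. Female pupae replicate 2 had 9.54 at spot 7497, against 8.96 to 9.02. At spot 14078 mixed-sex pupae replicate 4 had 9.54, against 10.10 to 10.16 in the other mixed-sex pupae. Embryo replicate 2 had 9.49 at spot 18281, against 8.90 to 9.0. Head replicate 3 had 9.72 at spot 11090, against 9.33 to 9.37. All values are normalized log2 signals.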

How the results depend on the processing

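The number of members was 13 with 75th percentile scaling, 42 with a level limit of 8, 10 with a limit of 9, 7 with a range limit of 0.5, 38 with a limit of 1, and 18 to 25 with 1 replicate left out. Of the 21, 9 passed in all 24 of those settings. Without the Cy5 samples on dim arrays, an alternative added after seeing the data, 17 passed, 13 of them among the 21. Shares in parentheses are of all spots called in either direction in the same fit. Brightness calls were 3 in every alternative run (18.1% to 65.9%). Dye calls were 15 with 75th percentile scaling (66.1%), 11 with the array as a random block (24.7%), 0 at a limma adjusted p of 0.01 (0.642%), and 2 to 6 with 1 replicate left out (4.82% to 8.31%). At spots 1233, 11923 and 18281 the dye difference turned to -0.21, -0.38 and -0.074 with 75th percentile scaling (limma adjusted p = 0.164, 0.0611 and 0.705). Any-group calls were 7 with 75th percentile scaling (29.2%), 6 with the array block (39%), 1 at 0.01 (26.4%), and 2 to 4 with 1 replicate left out (31% to 34.8%). That of spot 6683 was lost without embryo replicate 3, and that of spot 8850 without head replicate 1 or 3. Stage calls were 1 with plain subtraction (13.8%), 1 with the replicate block (12.8%), 0 at 0.01 (9.09%), and 1 to 2 with 1 replicate left out (11.3% to 14%). Tissue calls were 1 with 75th percentile scaling (13.6%), 2 with the array block (26.4%) and 0 to 1 with 1 replicate left out (16.3% to 19.9%), and sex calls stayed at 0. The median SD within groups was 0.414 with 75th percentile scaling and 0.259 to 0.301 with 1 replicate left out, lowest without head replicate 3. The cause of these moves was not tested.

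With the replicate number as a block, dye calls were 2 (5.71%), any-group calls 4 (32.3%) and stage calls 1 (12.8%). The numbers did not pair the samples: same-numbered deviations correlated from -0.83 to 0.72 over 60 pairs, and 5 of 24 samples correlated best with their own number. Dim Cy5 samples, with median net signals down to 5.19 units, limit what can be seen at low signal.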

Other observations

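The 21 spots carried a small part of each sample's summed net signal. Their share ran from 0.936% to 3.07% in the Cy5 samples and from 0.824% to 1.58% in the Cy3 samples. It was 1.61% ± 0.22 in female pupae, 1.18% ± 0.29 in male pupae, 1.19% ± 0.34 in mixed-sex pupae, 2.0% ± 0.88 in embryos, 1.25% ± 0.39 in heads and 1.33% ± 0.34 in abdomens (SD, n = 4 each). Both Cy5 samples lay above both Cy3 samples in 5 of the 6 groups, male pupae being the exception. Embryos had 2.38% and 3.07% in Cy5, against 1.24% and 1.32% in Cy3. Female pupae had 1.77% and 1.79%, against 1.31% and 1.58%. The 130 other spots bright in every group showed the same order of the dyes, again with male pupae as the exception. Their share in embryos was 27.9% and 26.6% in Cy5, against 14.0% and 14.7% in Cy3. These shares were taken before normalization and carry no test.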
